A study of Rattus norvegicus with 8 samples.

Results

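Myc and a small set of growth arrest genes were followed in smooth muscle cells of the rat pulmonary artery under a nitric oxide donor. The 6 genes of interest were Myc, Cdkn1a, Cdkn1b, Btg1, Btg2 and Gadd45a. They were found as every probe set of the array annotated to one of these symbols alone, which gave 11 probe sets for 5 genes out of 8740 probe sets that are not array controls. Myc, Cdkn1a and Btg1 had 2 probe sets each, Gadd45a had 4 and Cdkn1b had 1. Btg2 had none under this rule, so its signal is not analysed here.

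The series holds 8 Affymetrix rat U34 chips (A set) of primary cells from artery explants of adult Sprague-Dawley rats, freed of endothelium and adventitia. S-nitrosoglutathione (GSNO), which releases nitric oxide, was given for 1, 2 or 4 h, and untreated cells had none. Each group has an array numbered 1 and an array numbered 2. The series design gives GSNO at 100 μmol/L and the treatment protocol at 100 mmol/L. The untreated cells have no stated time, so time in culture and GSNO cannot be told apart, and the labels do not say whether the 2 independent preparations of the design are the array numbers.

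MYC is a transcription factor that pairs with MAX and drives genes of growth, ribosome production and cell cycle entry, and its messenger RNA turns over quickly. Cdkn1a (p21) and Cdkn1b (p27) encode inhibitors of cyclin-dependent kinases, and the Cdkn1a gene is a target of p53 that MYC can repress. Btg1 and Btg2 encode antiproliferative proteins that bind deadenylases, and Gadd45a encodes a stress protein linked to growth arrest and DNA repair. In vascular smooth muscle, nitric oxide donors are known to slow proliferation.

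Cultured cells carried most of the measured markers of their label. Of 11 smooth muscle markers, 9 were on the array and 8 were kept by the filter on dim probe sets. Acta2, smooth muscle actin, averaged a signal of 15543 in its brightest probe set, while Des, at 21.2, was not kept. Actg2 read 1098 on the untreated array numbered 1 and 74.4 on that numbered 2. The smooth muscle list summed to 95070 to 115600 at 1 h, 81910 to 113800 at 2 h and 80740 to 113300 at 4 h. In untreated cells it summed to 92610 to 127000. Endothelial, leukocyte and lung epithelium markers were mostly dim, with median signals of 39.6, 41.8 and 41.5. The filter still kept 3 of 6, 4 of 7 and 3 of 7 of their measured genes. Their brightest probe sets were of Flt1, Cd14 and Sftpb, at means of 208, 326 and 276. Krt18 of the lung list (rc_AI072634_at) read 138 and 11.6 on the untreated arrays numbered 1 and 2. The fibroblast and adventitia list held all of its 6 measured genes above the filter, with Col1a1 at a mean of 10219. The summed signal of that list was 34340 to 63240 at 1 h, 38450 to 54040 at 2 h and 45570 to 49720 at 4 h, against 53120 to 59450 in untreated cells. Sums count every probe set of a gene, so this sum was mostly collagen signal of Col1a1 and Col3a1. The median signal of the list was 206. Endothelial markers summed to 807 to 1019 at 1 h, 730 to 819 at 2 h and 510 to 788 at 4 h, against 905 to 908 in untreated cells. The part of other cell types in the results was not tested, and fewer cells of a type cannot be told apart from less RNA per cell.

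The promoters of Cdkn1a, Btg1 and Gadd45a are shown because the first was higher, the second lower and the third past the threshold at no time. They come from the 250 bases before the gene start, from RefSeq on GRCr8, 5′ to 3′ on the gene's strand. For Cdkn1a only the 138 bases farthest from the start are printed (chr20:7150682-7150819, plus strand), since the rest lies within the gene's annotated span. Btg1 is at chr7:33227899-33228148 on the plus strand and Gadd45a at chr4:97486800-97487049 on the minus strand. Capitals mark matches, on either strand, to the CRE core TGACG, the GC box GGGCGG, the CCAAT box CCAAT and the core of the antioxidant response element TGACNNNGC.
Cdkn1a: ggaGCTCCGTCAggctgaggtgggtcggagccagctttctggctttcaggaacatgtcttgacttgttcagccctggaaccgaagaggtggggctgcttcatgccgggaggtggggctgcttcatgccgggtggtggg
Btg1: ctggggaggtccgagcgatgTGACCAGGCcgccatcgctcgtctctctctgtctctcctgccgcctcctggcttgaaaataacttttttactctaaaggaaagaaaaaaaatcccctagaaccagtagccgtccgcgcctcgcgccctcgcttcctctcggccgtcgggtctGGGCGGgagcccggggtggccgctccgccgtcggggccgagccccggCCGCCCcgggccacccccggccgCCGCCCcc
Gadd45a: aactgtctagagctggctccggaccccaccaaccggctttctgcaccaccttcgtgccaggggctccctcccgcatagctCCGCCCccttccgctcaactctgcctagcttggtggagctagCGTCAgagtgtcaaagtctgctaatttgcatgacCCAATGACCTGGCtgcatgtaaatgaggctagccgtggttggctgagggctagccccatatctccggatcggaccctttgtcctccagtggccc

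In the 250 bases before the gene start, Btg1 had 3 GC boxes and no CRE core, Gadd45a had 1 of each and 1 CCAAT box, and Cdkn1a had 1 CRE core and no GC box. For Cdkn1a this window includes the bases not printed, which lie within its annotated span, so it is unlike the other windows. Of all 33469 promoters of the same length, 30.5% held a GC box, 18.2% a CRE core and 34% a CCAAT box. The antioxidant core, which 10.1% of promoters held, occurred once each in Cdkn1a, Cdkn1b, Btg1 and Gadd45a. In Cdkn1a it overlapped the CRE core, and in Gadd45a it overlapped the CCAAT box. The full CRE TGACGTCA (1.59% of promoters), the E-box CACGTG that MYC and MAX bind (5.59%) and the TATA box TATAAA (12.9%) had no match in the windows of these 4 genes. Btg2, which has no probe set here, differed from them in having 1 full CRE and no antioxidant core in its window. It had 3 GC boxes, as Btg1 did, and 2 CCAAT boxes, as Cdkn1b did. These are matches of letters, not binding sites.

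Each comparison was tested with limma on log2 signals over the 5877 probe sets kept by the filter, with Benjamini-Hochberg adjusted p under 0.05 as the threshold. Fold changes are on the scale of log2(signal + 21.1), which understates those of weak probe sets. Of the 11 probe sets, 10 were kept. Arrays with the same number deviated together, so each test is also given with a replicate block for that number, which changes the error of a fold change and not its size. Every SE is of the fit without the block.

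Without the block, 0 of the 10 kept probe sets passed at 1 h, 1 at 2 h and 3 at 4 h, where 0.527%, 0.97% and 1.53% of all kept probe sets passed. With the replicate block these were 2, 4 and 4, against 1.34%, 3.16% and 7.93% of all. Probe sets of a gene share its transcript, so the counts with the block stand for Myc at 1 h and for Btg1 and Cdkn1a at 2 and 4 h. The members were chosen with earlier results of these data known. Counts set beside these shares, here and below, are therefore no test of the members as a set. At 1 h, limma without the block gave an unadjusted p under 0.05 for 177 of the 5877 kept probe sets. This is less than the share of 0.05 expected with no effect. With the block the number was 337.

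**Figure D1:**
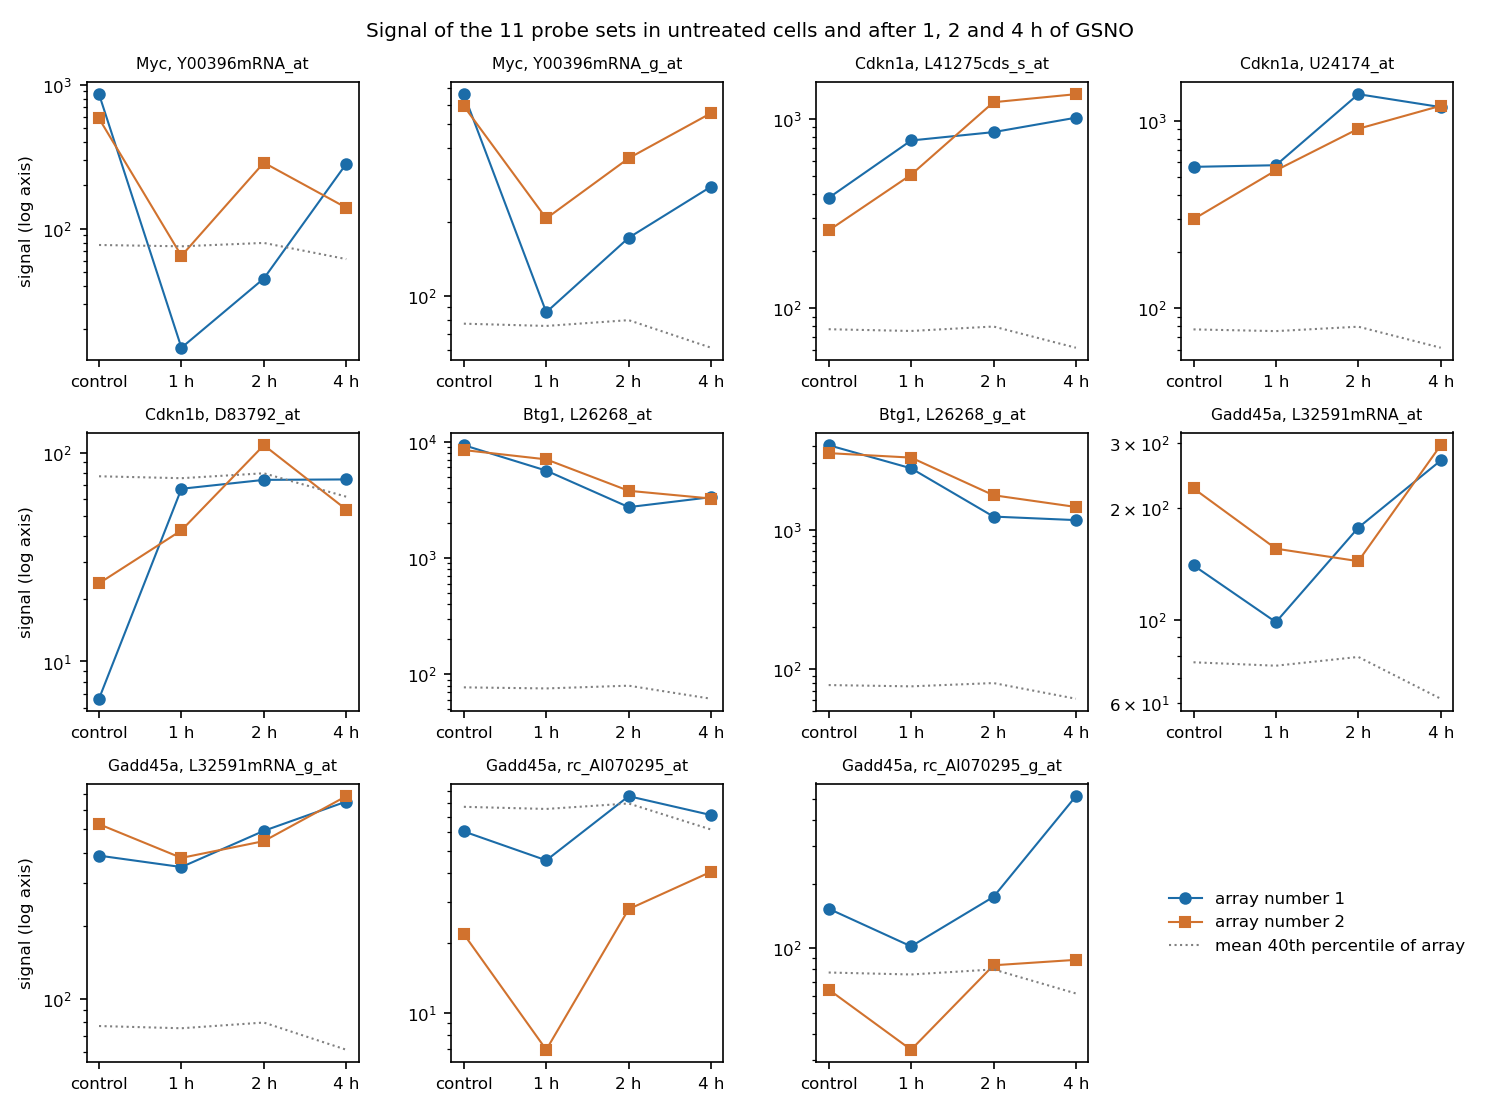
Signal (linear units on a log axis) of each of the 11 probe sets on every array, with groups on the horizontal axis, circles for arrays numbered 1, squares for arrays numbered 2 and a dotted line for the mean 40th percentile of each group's arrays. Both Myc probe sets are lowest at 1 h on both array numbers, Btg1 is lower at 2 and 4 h than in untreated cells, and Cdkn1a is higher.

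Myc had the most negative fold changes of the members, at 1 h, and there its 2 probe sets passed with the replicate block and not without it. The probe set Y00396mRNA_at read 862 and 584 on the arrays of untreated cells, 14.9 and 64.8 at 1 h, 45.1 and 288 at 2 h and 283 and 140 at 4 h. Every GSNO array lay below both untreated arrays, and both 1 h values lay under their array's 40th percentile. The log2 fold change at 1 h was -3.72 ± 0.74 (SE; limma adjusted p = 0.131, and 0.0162 with the replicate block). At so dim a signal its size depends on the offset, and it was -4.26 with an offset of 5 and -3.14 with an offset of 50. Arrays numbered 1 gave -4.62 and arrays numbered 2 gave -2.82.

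The second Myc probe set, Y00396mRNA_g_at, covers the same reference sequence and stayed above the 40th percentile on all 8 arrays. It read 662 and 592 in untreated cells, 85.9 and 207 at 1 h, 173 and 363 at 2 h and 279 and 555 at 4 h. No GSNO array reached the lower of the untreated arrays. Its log2 fold change at 1 h was -2.05 ± 0.50 (SE; limma adjusted p = 0.283, and 0.0079 with the replicate block). With the block, both Myc calls at 1 h were lost without either array numbered 1 of untreated or 1 h cells and held without each of the other 6 arrays. The highest adjusted p was 0.275 for the first probe set and 0.126 for the second. The 1 h array numbered 1 was alone in its chip lot, so among the arrays numbered 1 the lot and GSNO cannot be told apart. The run records also put it in another experiment than the untreated array numbered 1, and with the recorded experiment as block neither Myc probe set passed at 1 h (limma adjusted p = 0.151 for both).

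Later Myc values did not pass. At 2 h the log2 fold changes were -2.35 ± 0.74 and -1.25 ± 0.50 (SE; limma adjusted p = 0.418 and 0.705, and 0.0986 and 0.0778 with the replicate block). At 4 h they were -1.72 ± 0.74 and -0.64 ± 0.50 (limma adjusted p = 0.435 and 0.693, and 0.157 and 0.281 with the block). Then 4 h was tested against 1 h: Y00396mRNA_g_at was 1.41 ± 0.50 higher at 4 h, and passed with the replicate block (limma adjusted p = 0.0324), but not without it (0.398) or with the recorded experiment as block (0.0529). Y00396mRNA_at was 1.99 ± 0.74 higher and passed in neither fit (limma adjusted p = 0.429, and 0.124 with the block). The order of mean Myc signal was untreated, 4 h, 2 h and 1 h from high to low in both probe sets, and neither 2 h against 1 h nor 4 h against 2 h passed for either.

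Cdkn1a, the p21 inhibitor, was higher at 4 h in 1 probe set without the block, and in both at 2 and 4 h with it. The probe set L41275cds_s_at read 382 and 257 in untreated cells, 768 and 506 at 1 h, 850 and 1224 at 2 h and 1014 and 1350 at 4 h. All GSNO arrays lay above both untreated arrays. At 4 h it rose by 1.83 ± 0.33 on the log2 scale (SE; limma adjusted p = 0.0429, and 0.00408 with the replicate block), a fold of 3.56. With the recorded experiment as block it was 1.79 and did not pass (limma adjusted p = 0.0624). Arrays numbered 1 gave 1.36 and arrays numbered 2 gave 2.30.

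The other Cdkn1a probe set, U24174_at, read 568 and 299 in untreated cells, 579 and 544 at 1 h, 1387 and 907 at 2 h and 1183 and 1202 at 4 h. Its 1 h values overlapped the untreated ones, and its 2 h and 4 h values lay above them. At 4 h it was 1.48 ± 0.34 higher (SE; limma adjusted p = 0.0838, 0.0048 with the replicate block and 0.00828 with the recorded experiment as block). At 2 h the 2 probe sets were 1.64 ± 0.33 and 1.40 ± 0.34 higher, and both passed with the replicate block (limma adjusted p = 0.0122 and 0.0109) but not without it (0.084 and 0.164). With the block, the 4 h calls of both were lost without the untreated array numbered 2 (adjusted p = 0.055 and 0.0557) and held without each of the other 7 arrays, and the 2 h calls held without 6 and 5 of the 8. Without the block, the 4 h call of L41275cds_s_at was lost whichever array was left out.

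At 1 h neither Cdkn1a probe set passed in either fit, with log2 fold changes of 0.95 ± 0.33 and 0.42 ± 0.34. U24174_at was 1.06 ± 0.34 higher at 4 h than at 1 h, which passed with the replicate block (limma adjusted p = 0.0367) and not without it (0.322). L41275cds_s_at was 0.88 ± 0.33 higher and passed in neither fit (limma adjusted p = 0.439, and 0.139 with the block). Over the 8 arrays, the 2 probe sets correlated at r = 0.894 once the mean of each array number was removed. Mean signal ran 4 h, 2 h, 1 h and untreated from high to low in both.

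Cdkn1b, the p27 inhibitor, was too dim for a firm statement. Its probe set D83792_at read 6.63 and 23.7 in untreated cells, 67.2 and 42.5 at 1 h, 74.1 and 109 at 2 h and 74.5 and 53.5 at 4 h. Every GSNO array lay above both untreated arrays, but only 2 arrays, the 2 h array numbered 2 and the 4 h array numbered 1, reached their 40th percentile. It was therefore kept only through GSNO arrays. The log2 fold changes were 1.09 ± 0.46, 1.66 ± 0.46 and 1.26 ± 0.46 (SE) at 1, 2 and 4 h, and none passed, with a lowest limma adjusted p of 0.281, and 0.119 with the replicate block, both at 2 h.

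Btg1 was lower at 4 h in both probe sets and in both fits. This antiproliferative gene read 9335 and 8474 in untreated cells with L26268_at, 5640 and 7048 at 1 h, 2737 and 3783 at 2 h and 3334 and 3246 at 4 h. All GSNO arrays lay below both untreated arrays, and the 2 h and 4 h arrays also lay below both 1 h arrays. It fell by 1.46 ± 0.25 on the log2 scale at 2 h (SE; limma adjusted p = 0.0453, and 0.00117 with the replicate block) and by 1.43 ± 0.25 at 4 h (limma adjusted p = 0.0398, and 0.000935 with the block). With the replicate block both calls held without each of the 8 arrays in turn, with a highest adjusted p of 0.0458 at 2 h and 0.0183 at 4 h. Without the block the 2 h call was lost whichever array was left out, and the 4 h call held without either 2 h array and was lost without each of the other 6.

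The second Btg1 probe set, L26268_g_at, read 4027 and 3532 in untreated cells, 2750 and 3281 at 1 h, 1241 and 1764 at 2 h and 1171 and 1454 at 4 h. Again all GSNO arrays lay below both untreated arrays, and the 2 h and 4 h arrays below both 1 h arrays. The mean was lowest at 4 h here and at 2 h with the first probe set. Its log2 fold change was -1.34 ± 0.26 at 2 h (SE; limma adjusted p = 0.0757, and 0.00296 with the replicate block), and at 4 h it fell by 1.52 ± 0.26 (limma adjusted p = 0.0358, and 0.000932 with the block). With the block, its 2 h call was lost without the 2 h array numbered 1, and its 4 h call held without each array. Without the block, its 4 h call held without either 2 h array and was lost without any other array. The 4 h log2 fold change then ranged over -1.67 to -1.36. The 2 Btg1 probe sets correlated at r = 0.98 over the 8 arrays with the array number removed.

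At 1 h the Btg1 values were -0.49 ± 0.25 and -0.33 ± 0.26 (SE), and neither passed in either fit. Times were then set against each other. At 4 h against 1 h the differences were -0.93 ± 0.25 and -1.19 ± 0.26, which passed with the replicate block (limma adjusted p = 0.0157 and 0.00671) and not without it (0.22 and 0.135). With the block and the arrays scaled to a common median neither passed (0.168 and 0.0507), and with the recorded experiment as block the second alone did (0.0531 and 0.0275). At 2 h against 1 h they were -0.97 and -1.01, and passed in neither fit (limma adjusted p = 0.0835 for both with the block). Between 4 h and 2 h the differences were 0.03 ± 0.25 and -0.18 ± 0.26.

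**Figure D2:**
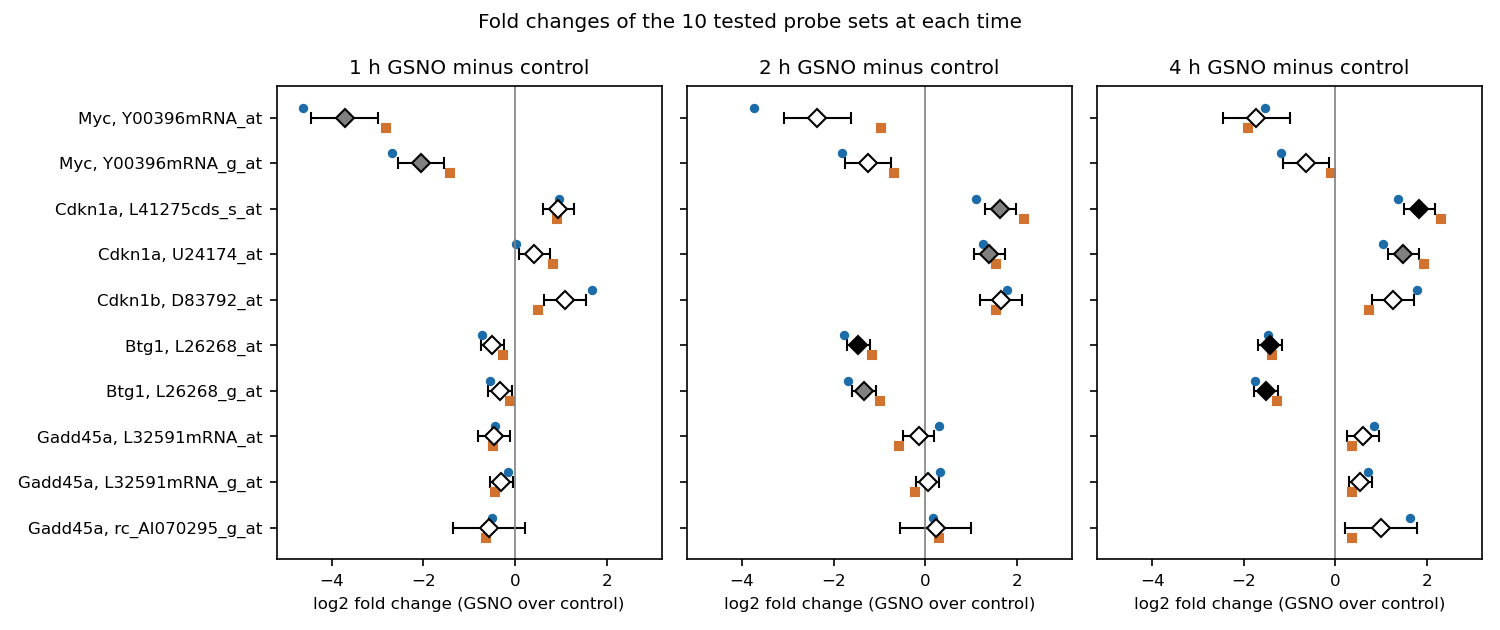
Log2 fold change over untreated cells of the 10 tested probe sets at 1, 2 and 4 h, as diamonds with bars of 1 SE from the limma fit without the block. Diamonds are black where adjusted p was under 0.05 without the block, grey where only with the replicate block, and white otherwise, and the small circles and squares are the values between the arrays numbered 1 and 2. Myc is grey at 1 h alone, Cdkn1a and Btg1 are black or grey at 2 and 4 h on opposite sides of 0, and Gadd45a is white throughout.

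Gadd45a passed at no time against untreated cells in either fit, with values below 0 at 1 h and above 0 at 4 h. L32591mRNA_at read 140 and 226 in untreated cells, 98.9 and 156 at 1 h, 177 and 144 at 2 h and 269 and 295 at 4 h. L32591mRNA_g_at read 390 and 526 in untreated cells, 350 and 381 at 1 h, 493 and 447 at 2 h and 652 and 686 at 4 h. In both, the 4 h arrays lay above both untreated arrays, while the 2 h arrays overlapped them, and at 1 h the second lay below and the first overlapped.

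The Gadd45a log2 fold changes were -0.46 ± 0.34 and -0.29 ± 0.25 at 1 h and 0.60 ± 0.34 and 0.54 ± 0.25 at 4 h (SE), and none passed in either fit. The probe set rc_AI070295_g_at read 153 and 64.2 in untreated cells, 102 and 33.6 at 1 h, 174 and 83.4 at 2 h and 515 and 88.4 at 4 h. The 4 h array numbered 1 stood far above the other 7, and the arrays numbered 2 were lower than those numbered 1 at every time. The last, rc_AI070295_at, ranged from 6.93 to 85.7, reached the 40th percentile on 1 array and was not kept. For 4 h against 1 h, the 3 kept probe sets were 1.06 ± 0.34, 0.84 ± 0.25 and 1.56 ± 0.78 higher, and passed in neither fit (limma adjusted p = 0.33, 0.282 and 0.618, and 0.0866, 0.057 and 0.0504 with the replicate block). With the block and the arrays scaled to a common median, a setting chosen after seeing the data, all 3 passed (0.0319, 0.0423 and 0.0337). With the recorded experiment as block none of the 3 passed (0.122, 0.0953 and 0.0645).

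Counting arrays, at 1 h both GSNO arrays lay below both untreated arrays in 5 of the 10 kept probe sets, where 13% of all kept probe sets did, and above them in 2, where 10.1% did. At 2 h they lay below in 4 (17% of all) and above in 3 (12.9%). At 4 h they lay below in 4 (27.5%) and above in 5 (13.4%). The below counts were Myc and Btg1 at every time, joined at 1 h by 1 Gadd45a probe set. Each above count includes Cdkn1b, which the filter kept through GSNO arrays alone, so nothing is read from these counts.

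The moderated F test over the 3 times called 0 members without the block, where 67 of all kept probe sets (1.14%) passed. With the replicate block it called 6, the 2 probe sets each of Myc, Cdkn1a and Btg1, where 5.94% of all passed, and their adjusted p lay between 0.00147 and 0.0278. In 4 h against 1 h, 0 members passed without the block (0.476% of all) and 4 with it (5.1% of all). None passed at 2 h against 1 h, where 0% of all passed without the block and 0.034% with it, or at 4 h against 2 h, where 0% and 0.544% did.

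Over all kept probe sets the median at 4 h was -0.16 on the log2 scale, and 0.04 after scaling the arrays to a common median. With that scaling the 4 h values were -1.21 and -1.30 for Btg1, which then passed only with the replicate block (limma adjusted p = 0.117 and 0.0853 without it, 0.0146 and 0.00931 with it). For Cdkn1a they were 2.05 and 1.70, which passed in both fits.

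With the mean of each array number removed, Btg1 (L26268_at) correlated with Cdkn1a (U24174_at) at r = -0.931 over the 8 arrays, while Myc (Y00396mRNA_g_at) correlated with Cdkn1a at -0.0775 and with Btg1 at 0.25. These are descriptions over arrays that share 4 groups.

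The genes most like each member by this measure, taken as the 3 highest among 4841 kept probe sets with 1 symbol, are high by choice and are also only described. For Btg1 they were Cnksr3 (r = 0.989), Ecel1 (0.986) and Fzd1, a Wnt receptor (0.985), with log2 fold changes at 4 h of -3.07, -0.63 and -1.84. For Cdkn1a they were Bok, a BCL2 family gene (0.973), Pde3b, a phosphodiesterase (0.972), and Il6, a cytokine gene (0.971), at 1.00, 1.18 and 3.76 at 4 h. For Myc they were Pex2 (0.967), Ndufv2 (0.95) and the calcium channel gene Cacna1c (0.936), at -0.87, -0.51 and -0.70 at 1 h. For Gadd45a they were Mark2 (0.998), B3galt4 (0.98) and the transketolase gene Tkt (0.975). For the dim Cdkn1b they were Emd (0.969), Slc22a5 (0.966) and Rnaseh2a (0.96).

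Around MYC itself, 4 of 5 network genes on the array were kept: Max, Mxd3, Mxd4 and Mxi1. MXI1 and the MXD proteins compete with MYC for MAX. None passed without the block. With the replicate block Mxi1 passed as higher at 2 h in both of its probe sets and at 4 h in 1, and Mxd4 as lower at 4 h. Mxi1 (rc_AA893611_s_at) read 1172 and 1490 at 2 h, against 373 and 654 in untreated cells, which is 1.38 ± 0.35 on the log2 scale (SE; limma adjusted p = 0.193, and 0.0377 with the block). Its other probe set, AF003008_at, gave 1.25 at 2 h and 1.17 at 4 h, and passed at both with the block (0.0403 and 0.0303), while at 4 h the first gave 0.72 (0.206). Mxd4 read 385 and 362 at 4 h, against 688 and 719 in untreated cells, which is -0.88 ± 0.28 on the log2 scale (limma adjusted p = 0.224, and 0.0404 with the block).

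Of the genes that MYC is known to activate, 17 were kept, and 0 passed at any time without the block. Their median log2 fold change was -0.08, 0.00 and -0.11 at 1, 2 and 4 h, beside -0.05, -0.06 and -0.16 for all kept probe sets. With the replicate block 0 passed at 1 h, 1 rose and 1 fell at 2 h, and 2 rose and 1 fell at 4 h, where 1.34%, 3.16% and 7.93% of all kept probe sets passed in either direction. Mcm7, a subunit of the replicative helicase, was the one that fell, at 475 and 494 at 2 h, against 806 and 1076 in untreated cells (log2 fold change -0.91 ± 0.24 SE, limma adjusted p = 0.231, and 0.0376 with the block), and at 4 h it was -0.89 (0.0226). Slc3a2, an amino acid transporter subunit, was 0.85 higher at 2 h and 0.69 at 4 h (limma adjusted p = 0.014 and 0.0242 with the block), and its other probe set gave 0.75 and 0.58 (0.0463 and 0.0743 with the block). Cdc25b, a phosphatase that activates cyclin-dependent kinases, was 1.13 higher at 4 h (0.0305 with the block), while its other probe set gave 0.28 (0.773).

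In the list of GADD relatives and growth arrest genes 8 were kept, and Klf6, Ddit3, Ppp1r15a and Pmp22 passed at some time in one fit or both. Ppp1r15a (GADD34), which directs dephosphorylation of eIF2 alpha, read 1103 and 1370 at 1 h, against 395 and 330 in untreated cells. Its log2 fold change was 1.71 ± 0.31 (SE; limma adjusted p = 0.0803, and 0.00715 with the replicate block), and the other probe set gave 1.99 (0.0664 with the block). Ddit3 (CHOP), a stress transcription factor, read 810 and 694 at 1 h, against 198 and 267 in untreated cells, which is 1.62 ± 0.33 on the log2 scale (limma adjusted p = 0.142, and 0.0196 with the block). It was 1.32 higher at 2 h (0.0369 with the block) and 1.03 at 4 h (0.0586).

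Klf6, a zinc finger factor counted in the same list, read 168 and 77.5 at 1 h, against 809 and 803 in untreated cells. It fell by 2.60 on the log2 scale at 1 h and by 2.71 at 2 h (limma adjusted p = 0.0486 and 0.0261, and 0.00604 and 0.00296 with the block), and its 4 h value of -1.69 passed with the block alone (0.0239). Pmp22, found as a growth arrest transcript in fibroblasts of mouse, was 1.04 higher at 4 h with S55427_s_at (limma adjusted p = 0.0237 with the block) and 0.04 with its other probe set (0.962). The list median was 0.01, 0.19 and 0.20 at 1, 2 and 4 h. Without the block 1 gene passed at 1 h and at 2 h and 0 at 4 h, where 0.527%, 0.97% and 1.53% of all kept probe sets passed. With it 3, 2 and 2 passed, where 1.34%, 3.16% and 7.93% of all did.

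No gene of the remaining lists passed at any time in either fit. These were 4 kept CDK inhibitors and pocket proteins (Cdkn1c, Cdkn2b, Rb1 and Rbl2), 4 of the BTG and TOB family and deadenylase partners (Btg3, Cnot2, Zfp36 and Zfp36l1), 4 of p53 and its targets (Mdm2, Ccng1, Pcna and Zmat3) and 6 CDKs and cyclins (Cdk1, Cdk2, Ccnd1, Ccnd3, Ccne1 and Ccnb1). At 4 h their median log2 fold changes were -0.23, 0.01, 0.14 and -0.18, beside -0.16 for all kept probe sets. A p that misses the threshold with 2 arrays per group does not show that these genes stayed level.

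**Figure D3:**
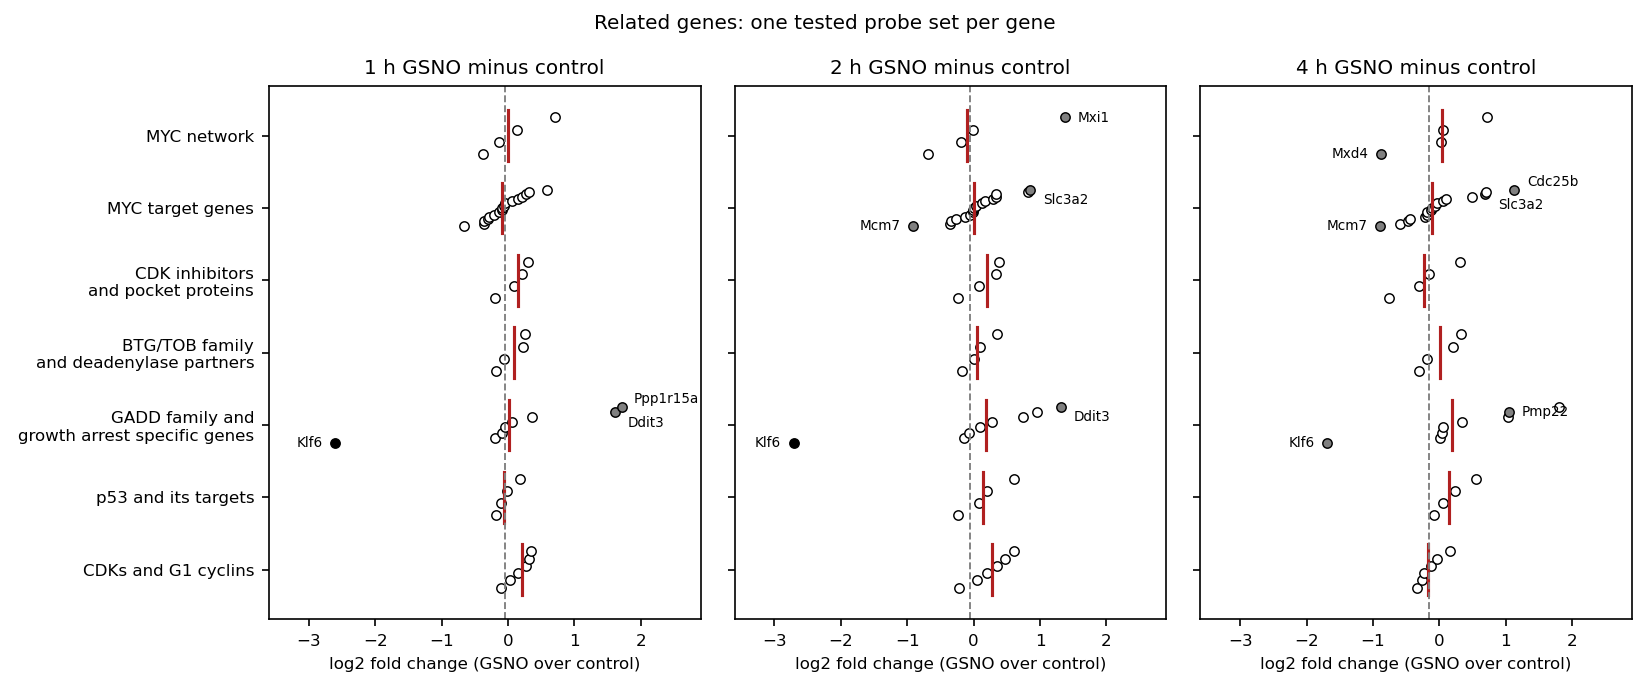
Log2 fold change over untreated cells at 1, 2 and 4 h of the genes in the 7 lists, with 1 circle per gene for its kept probe set of highest mean signal. Circles are black where adjusted p was under 0.05 without the block, grey where only with the replicate block and white otherwise. Genes under 0.05 with the block are named, whether black or grey. A red bar marks the list median and a dashed line the median of all kept probe sets. Klf6 is black at 1 and 2 h, and the named genes lie in the MYC network, MYC target and growth arrest lists alone.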

How the data were processed

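Per the series design and the labels' protocols, total RNA was converted to biotin-labelled cRNA, hybridised to rat U34 chips (A set) and analysed by the authors with Affymetrix software version 5.0. The authors deposited a linear intensity for every probe set; its trimmed mean, leaving out 2% at each end, was 500.7 to 501.0 on all arrays, so they were used as deposited. No detection calls were used here. Run records (other, per the file headers) gave 2 scan days, 3 chip lots and 3 experiments, and the array number follows the scan day. Among the arrays numbered 1, the 1 h and 4 h arrays shared an experiment, and the untreated and 2 h arrays shared another. The 1 h and 4 h comparisons with untreated cells therefore carry this difference for every gene.

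An offset of 21.1, the median of the arrays' 20th percentiles, was added before log2. Kept were probe sets that reached the 40th percentile of 2 or more arrays (5877 of 8740; 59 control features left out). limma 3.58.1 in R 4.3.3 (lmFit, eBayes with trend) fitted all 4 groups together with 4 residual degrees of freedom; p-values are two-sided and Benjamini-Hochberg adjusted. Precision is limited by 2 arrays per group, and where these share a preparation the p-values measure technical spread. No 2 of the 28 pairs of arrays were identical. The code was tested on simulated data.

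Array numbers pair the arrays: deviations from group means of same-numbered arrays correlated at 0.387 to 0.569 in all 6 pairs of groups. Symbols came from GEO's platform annotation (7018 probe sets with 1, 308 with several, 1473 with none); 6994 IDs were found in RefSeq's table for GRCr8 and 0 symbols changed. Promoters are RefSeq's, found for 5 of the 6 genes, Myc not among them. All member probe sets are named; of each list, every gene that passed against untreated cells in either fit is named. Members and lists were chosen with earlier results of these data known. Alternatives were the replicate block, the recorded experiment as block, offsets, filters, scaling, 2-group fits, the variance prior and leaving out each array.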

Additional observations from a re-analysis of the deposited data

Results flagged for a closer look

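The following members had an effect against untreated cells that differed between exposure times, either by limma's test of the difference with the replicate block or because both arrays of a time moved one way and both of another time the opposite way. None of these differences passed without the block. Between 4 h and 1 h, Myc (Y00396mRNA_g_at) differed by 1.41, Cdkn1a (U24174_at) by 1.06 and Btg1 by -0.93 (L26268_at) and -1.19 (L26268_g_at) on the log2 scale, and each passed with the block. The other probe sets of Myc (Y00396mRNA_at) and Cdkn1a (L41275cds_s_at) differed by 1.99 and 0.88 and did not pass with it. With the recorded experiment as block Myc and Btg1 L26268_at did not pass, and with the replicate block and a common median neither Btg1 probe set did. Gadd45a stood below untreated cells of the same array number on both 1 h arrays and above them on both 4 h arrays in its 3 kept probe sets, which differed by 1.06 (L32591mRNA_at), 0.84 (L32591mRNA_g_at) and 1.56 (rc_AI070295_g_at). The last also lay above on both 2 h arrays and differed by 0.80 between 2 h and 1 h. These Gadd45a differences passed neither without the block nor with it. For 4 h against 1 h their limma adjusted p was 0.0504 to 0.0866 with the block. It was 0.0645 to 0.122 with the recorded experiment as block. With the block and a common median, chosen after seeing the data, it was 0.0319 to 0.0423.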

How the results depend on the processing

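The number of member probe sets that passed was 0, 1 and 3 at 1, 2 and 4 h against untreated cells, 0 for 4 h against 1 h and 0 in the F test. With the replicate block it was 2, 4, 4, 4 and 6, and with the block and a common median, an alternative chosen after seeing the data, 2, 4, 4, 5 and 6. The recorded experiment as block gave 0 at 1 h, 4 at 2 h, 3 at 4 h, 2 for 4 h against 1 h and 3 in the F test, all of Btg1 and Cdkn1a, with no Myc call; at 4 h it lost Cdkn1a L41275cds_s_at and gained U24174_at. At 2 h the count was 0 with no filter, with a common median, with only the 2 groups compared and without the variance trend. Quantile normalization gave 2 at 2 h and 2 in the F test, where 77 and 86 of all kept probe sets passed. At 4 h the count was 0 with only the 2 groups compared and without the trend. At 1 h the fit of the 2 groups compared gave 1, a Myc probe set, where 22 of all passed. Leaving out 1 array, with or without the block (with it was chosen after seeing the data), gave 0 to 2 at 1 h, 0 to 5 at 2 h, 0 to 5 at 4 h, 0 to 4 for 4 h against 1 h and 0 to 7 in the F test. The replicate block raised the calls over all kept probe sets to 79, 186 and 466 at 1, 2 and 4 h, against 31, 57 and 90 without it. No setting gave a call for 2 h against 1 h or 4 h against 2 h. Without the block, Btg1 at 2 h and Cdkn1a at 4 h lost their calls without any 1 of the 8 arrays; each such fit has fewer samples.

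Signs turned only for values that passed in neither fit of all 8 arrays, with or without the replicate block. Gadd45a L32591mRNA_g_at at 2 h was -0.0012 with a common median, with or without the block. Without 1 array it ranged over -0.16 to 0.26, and was also -0.02, -0.15 and -0.12. L32591mRNA_at at 2 h ranged over -0.49 to 0.21 (with the block at both ends) and was also -0.45, 0.16 and 0.095. At 2 h rc_AI070295_g_at ranged over -0.29 to 0.74 and was also -0.22 and -0.070, at 4 h over -0.16 to 2.14, and at 1 h over -1.16 to 0.016. With the block and without the 4 h array numbered 2, its 4 h value was 1.62 and crossed the threshold. That fit has 1 array left at 4 h. Cdkn1a U24174_at at 1 h ranged over -0.016 to 0.87. The causes were not tested.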
